A study of Mus musculus with 14 samples.

Results

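The genes described here are 10 mouse genes of MHC class II antigen presentation: the class II chains H2-Aa, H2-Ab1 and H2-Eb1, the invariant chain Cd74, the H2-M genes H2-DMa, H2-DMb1 and H2-DMb2, the H2-O genes H2-Oa and H2-Ob, and the transactivator Ciita. All probe sets annotated to these symbols were taken, whatever their values. They are 10 of the 8251 genes read by a probe set with a single gene name, and 12 probe sets of 12488. H2-DMa has 2 probe sets, and 1 more probe set is annotated to H2-DMb1 and H2-DMb2 together, so it is counted but not given to either gene. The study irradiated mice with and without Atm, the kinase that DNA double-strand breaks activate, and hybridised total RNA labelled as lymph node to 14 Affymetrix arrays. Animals lacking Atm (Atm-/-, KO) gave 3 arrays without treatment, 2 arrays taken 30 min after ionizing radiation (IR), and 2 more taken at 120 min. Wild-type animals (Atm+/+, WT) gave the same 3, 2 and 2 arrays. The labels state neither strain, age, sex nor radiation dose, and do not say whether arrays of a group came from separate animals or from pools. The p-values therefore measure the spread between these arrays, which may be technical.

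Class II molecules are pairs of an alpha and a beta chain that carry peptides from engulfed proteins to the surface of B cells, dendritic cells and macrophages, where CD4+ T cells read them. The invariant chain binds the new pair, fills its groove and guides it to the endosome, where proteases cut it down to a short peptide. H2-M then exchanges that peptide for others, and H2-O, found mainly in B cells, restrains H2-M. Ciita does not bind DNA itself. It docks onto the factors that sit on the X and Y boxes upstream of class II genes.

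The promoters are shown because these boxes are a known feature of the control of class II genes. RefSeq promoters of build GRCm38.p6, each covering 250 bases before and 50 after a gene's start, were at hand for 7 of the 10 genes: H2-Aa, H2-Eb1, H2-Oa, H2-Ob, H2-DMa, H2-DMb1 and H2-DMb2. The H2-DMa gene has 2 such promoters, which makes 8. Each was searched on both strands for the Y box core ATTGG and the X box core AGNAAC, which do not overlap each other. In the first 4 stretches below, both cores stand in capitals, and in the last 2 stretches, which lacked the X core in that position, the capitals mark the Y core.
H2-Eb1: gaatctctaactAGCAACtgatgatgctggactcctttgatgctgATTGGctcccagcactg
H2-DMb1: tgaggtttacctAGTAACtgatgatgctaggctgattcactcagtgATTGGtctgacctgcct
H2-Oa: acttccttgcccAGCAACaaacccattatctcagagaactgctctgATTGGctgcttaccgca
H2-Ob: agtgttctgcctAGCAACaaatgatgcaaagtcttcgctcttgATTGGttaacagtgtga
H2-Aa: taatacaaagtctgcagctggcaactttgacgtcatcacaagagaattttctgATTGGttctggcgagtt
H2-DMb2: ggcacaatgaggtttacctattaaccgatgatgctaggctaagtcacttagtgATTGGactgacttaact

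The stretches lie on chromosome 17, within the MHC, at chr17:34305763-34305824 for H2-Eb1, chr17:34153084-34153146 for H2-DMb1, chr17:34092290-34092352 for H2-Oa and chr17:34238805-34238864 for H2-Ob, all on the plus strand. That of H2-DMb2 is chr17:34145106-34145175 on the plus strand, and that of H2-Aa is chr17:34287855-34287924 on the minus strand. All are written 5′ to 3′ along the gene. The Y core was found in 7 of the 8 promoters, against 37.41% of the 32851 promoters in the table. The X core was found in 5 of the 8, against 48.05%, so that core alone is common everywhere. An X core followed by a Y core on the same strand after 20 to 35 bases was found in 4 of the 8 promoters and in 0.83% of all promoters. The distance between the cores was 27 bases in H2-Eb1, 28 in H2-DMb1 and H2-Oa, and 25 in H2-Ob. The Y core began at position -59 from the start of H2-Eb1, -61 of H2-DMb1, -43 of H2-Oa, -57 of H2-Ob, -48 of H2-Aa and -90 of H2-DMb2. Of the H2-DMa promoters, 1 held a Y core, at position -198, and neither held the pair. A match is a description of letters, not of a factor bound there, and cores that differ from these letters were not counted.

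**Figure D1:**
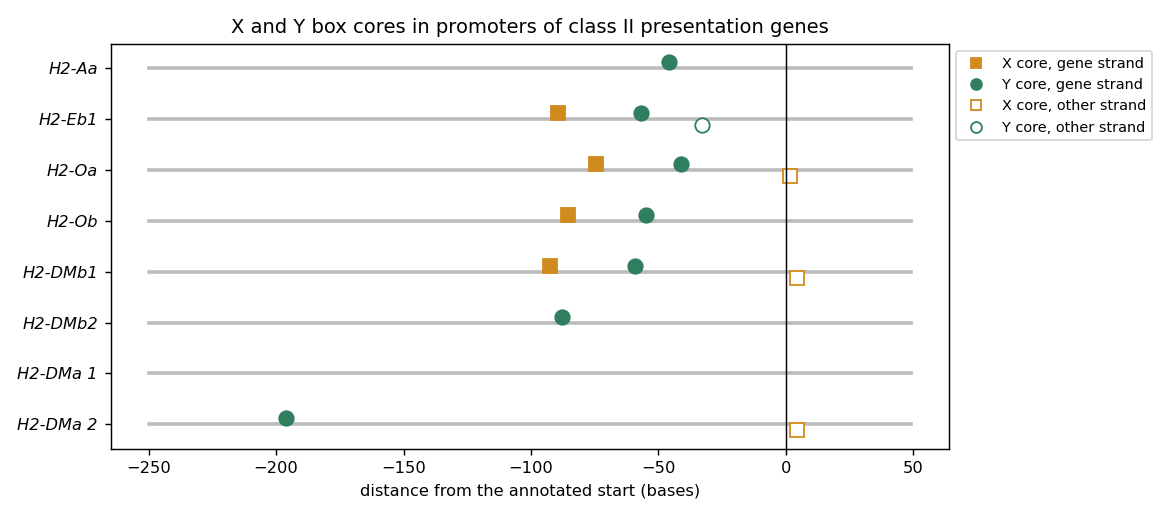
Positions of the Y box core and the X box core in the 8 member promoters, as distance in bases from the gene's start. Each row is a promoter and each mark a match, on either strand; the 4 promoters of H2-Eb1, H2-DMb1, H2-Oa and H2-Ob hold the X core upstream of the Y core with 25 to 28 bases between them.

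The deposited values are intensities on a linear scale, 1 per probe set and array, and each array had been scaled so that its trimmed mean was 150.1. Precision is limited by how few arrays there are. The single Atm probe set was dim, from 7.5 to 44.0 on the 7 KO arrays and from 5.5 to 55.9 on the 7 WT arrays, so it does not check the labels. Median correlations of an array with the others lay between 0.91 (KO 30 min A) and 0.953. Lymphocyte genes were read on all arrays, with summed intensities of 2065 to 4079 for 16 B cell markers and 798 to 1439 for 14 T cell markers. So were genes that lymph nodes are not known for, with sums of 36526 to 62609 for 6 salivary gland markers and 908 to 11115 for 10 skeletal muscle markers. In such bulk samples, fewer cells of a type and less RNA per cell cannot be told apart.

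All 12 probe sets passed the filter on dim values. Changes are given on the log2(value + 32) scale, which understates those of dim genes, each with its standard error (SE) from the limma fit over 8938 probe sets and a p adjusted over all of them. A probe set was called at an adjusted p under 0.05. H2-Ob was the only member called in any of the 8 comparisons, in WT at 120 min. The other members are given by their values.

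In KO animals at 120 min after IR, 9 of the 10 genes lay above their untreated level, with a median change of 0.27, where 49.6% of all probe sets lay above 0. H2-Aa and Cd74 did so without overlap, 2 of the 10 genes, against 13% of all probe sets, a share close to that background. None of the 12 probe sets was called, as was none of the 8938 in this comparison with limma (0%), and 1 of the 12 had an unadjusted p under 0.05, with a higher value, against 3.58%. The positive median rested on KO 120 min A. Without that array 6 of the 10 genes lay above 0 with a median of 0.03, and without KO 120 min B 9 did so with a median of 0.48. The median was 0.14 without the untreated array KO A. The mean of the 12 scaled probe sets was 1.02 on KO 120 min A and 0.17 on KO 120 min B, and that second value lay within the untreated KO range of -0.43 to 0.18.

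In WT animals at 120 min after IR, 9 of the 10 genes lay below their untreated level, with a median log2 change of -0.47, while 50.6% of all probe sets lay below 0 and their median was -0.0045. For 8 of the 10 genes the irradiated arrays lay below all untreated arrays without overlap, against 13.6% of all probe sets. Of the 12 probe sets, 7 had an unadjusted p under 0.05 and a lower value, against 4.01%. The call itself was made for 1 of the 12, against 0.515% of all probe sets in either direction and 0.0448% for lower values. The number with an unadjusted p under 0.05 was 3 without WT 120 min A and likewise 3 without WT 120 min B. The WT 120 min group had the lowest mean log2 value of the 6 groups for 8 of the 10 genes, the exceptions being H2-DMb2 and Ciita.

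H2-Aa encodes the alpha chain of the A molecule. Its intensity was 2191.4 and 1656.3 on the KO 120 min arrays, against 1158.2, 1520.3 and 1410.2 on the untreated KO arrays. Both irradiated arrays lay above every untreated one, with a log2 change of 0.37 ± 0.22 (SE, n = 2 and 3 arrays, limma adjusted p = 0.765). In WT animals H2-Aa read 1124.3 and 939.5 at 120 min, against 1423.0, 1493.4 and 1312.5 untreated. There both irradiated arrays lay below every untreated one, with a change of -0.49 ± 0.22 (limma adjusted p = 0.562).

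The beta chain H2-Ab1, which pairs with H2-Aa, read 544.7 and 623.4 on the KO 120 min arrays, against 387.7, 517.4 and 581.7 untreated, where the groups overlapped and the change was 0.26 ± 0.22 (limma adjusted p = 0.844). On WT arrays H2-Ab1 read 373.0 and 365.5 at 120 min, against 619.5, 547.5 and 484.4 untreated. The groups did not overlap in WT, and the change was -0.56 ± 0.22 (limma adjusted p = 0.492).

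H2-Eb1 encodes the beta chain of the E molecule. It read 1792.0 and 1226.1 on the KO 120 min arrays, against 1170.0, 993.8 and 1255.3 untreated. Only KO 120 min A stood above the untreated KO arrays, and the change was 0.27 ± 0.18 (limma adjusted p = 0.797). On WT arrays it read 1066.3 and 857.3 at 120 min, against 1153.3, 1337.9 and 1187.1 untreated, lower on both irradiated arrays (-0.40 ± 0.18, limma adjusted p = 0.574). Its alpha partner H2-Ea read 3.6 to 41.1 over all 14 arrays and the further beta chain H2-Eb2 4.7 to 46.4, and neither passed the filter. Mouse strains of some haplotypes do not make the E alpha chain, and the labels give no strain.

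The Cd74 values of the genotypes lay apart at 120 min. Its intensity on the KO arrays was 3163.6 and 2763.7 at 120 min, against 1844.5, 2141.9 and 2076.1 untreated. On WT arrays it was 1645.2 and 1582.7 at 120 min, against 2024.9, 2228.2 and 2016.5 untreated. The KO 120 min arrays held the highest deposited Cd74 values of all 14 arrays and the WT 120 min arrays the lowest. After normalization KO 30 min A (11.296 on the log2 scale) lay just above KO 120 min B (11.286). The log2 change was 0.40 ± 0.16 in KO (limma adjusted p = 0.662) and -0.44 ± 0.16 in WT (limma adjusted p = 0.47).

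**Figure D2:**
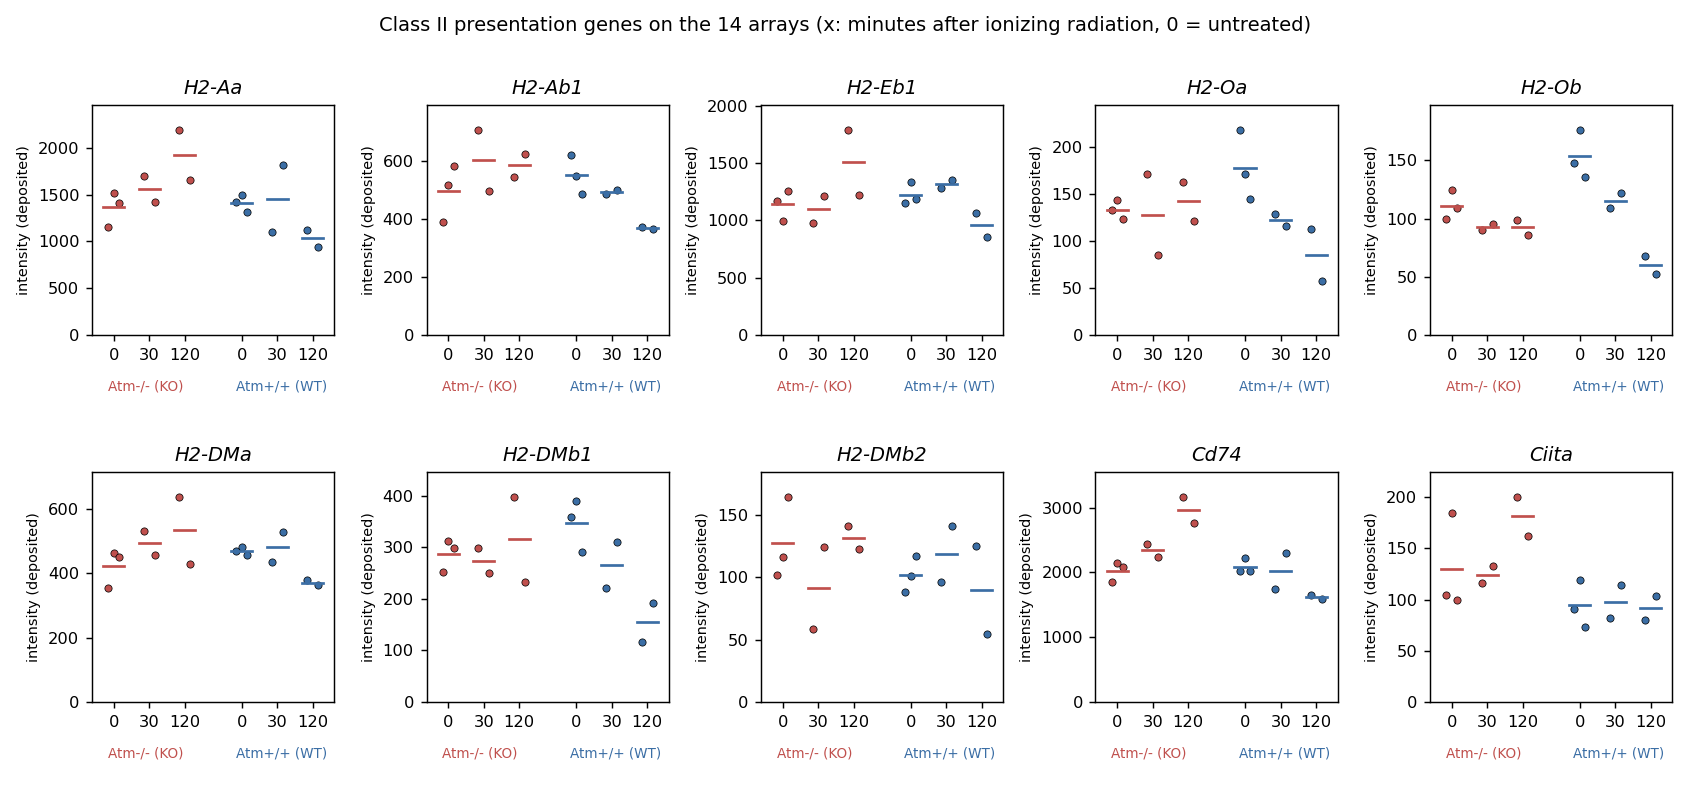
Deposited intensity of each of the 10 genes on every array (points; linear axis from 0), with group means as bars, KO groups left of WT groups in each panel and times from untreated to 120 min. For Cd74 the 2 KO 120 min arrays read 2763.7 and 3163.6 and the 2 WT 120 min arrays 1582.7 and 1645.2; for H2-Ob the WT 120 min arrays are the lowest of the 14.

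H2-M is built from H2-DMa and a DMb chain and loads peptides onto class II. H2-DMa read 636.5 and 428.1 on the KO 120 min arrays, against 354.3, 462.1 and 451.0 untreated, with only KO 120 min A above the untreated range (0.30 ± 0.20, limma adjusted p = 0.797). On WT arrays H2-DMa read 377.4 and 363.7 at 120 min, against 469.3, 482.5 and 457.4 untreated (-0.35 ± 0.20, limma adjusted p = 0.671). The groups did not overlap in WT. The second H2-DMa probe set was dim, from 16.8 to 66.3 over the 14 arrays. It passed the filter only through WT untreated A (66.3) and WT 120 min B (54.0), which favoured lower values in KO than in WT. It did not vary with the first: its change was -0.05 ± 0.19 in KO and -0.01 ± 0.19 in WT at 120 min, and its correlation with the first over the 14 arrays was -0.257.

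H2-DMb1 encodes a beta chain of H2-M. On KO arrays it read 397.5 and 233.1 at 120 min, against 252.4, 311.5 and 299.4 untreated, so the irradiated arrays lay on either side of the untreated ones (0.09 ± 0.25). On WT arrays H2-DMb1 read 116.5 and 191.8 at 120 min, against 359.5, 389.7 and 290.0 untreated. Both irradiated WT arrays lay below every untreated one, but they also differed from each other, and the change of -1.02 ± 0.25 did not pass (limma adjusted p = 0.152).

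H2-DMb2, the neighbouring DMb gene, showed no such separation. It read 141.2 and 122.5 on the KO 120 min arrays, against 102.2, 116.1 and 164.7 untreated, and 125.3 and 55.0 on the WT 120 min arrays, against 88.0, 100.9 and 117.1 untreated. The groups overlapped in both genotypes, with changes of 0.07 ± 0.32 in KO and -0.16 ± 0.32 in WT. The DMb genes are close copies, so probes for one may also read the other. The probe set annotated to both was dim, from 6.0 to 78.6.

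H2-O is built from an alpha chain, H2-Oa, and a beta chain, H2-Ob, and neither was called in KO animals. H2-Ob read 99.0 and 85.9 on the KO 120 min arrays, against 100, 124.1 and 109.2 untreated (-0.20 ± 0.18, limma adjusted p = 0.855). The deposited H2-Ob values did not overlap in KO, by a margin of 99.0 to 100, and those after normalization did. H2-Oa read 163.3 and 121.3 on the KO 120 min arrays, against 132.7, 143.6 and 123.1 untreated (0.08 ± 0.26). Untreated KO arrays already lay below the untreated WT arrays for H2-Ob, with a difference of -0.38 ± 0.16 (limma adjusted p = 0.91), and for H2-Oa, with one of -0.34 ± 0.23 (adjusted p = 0.977).

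In WT animals both H2-O chains lay lower at 120 min. H2-Oa read 113.1 and 57.9 on the WT 120 min arrays, against 218.4, 171.3 and 144.3 untreated (-0.84 ± 0.26, limma adjusted p = 0.319), without overlap. H2-Ob read 67.8 and 52.3 on the WT 120 min arrays, against 148.1, 176.2 and 135.7 untreated, and the 2 WT arrays at 30 min, 108.8 and 121.7, lay between. H2-Ob fell by 0.95 ± 0.18 on the log2 scale in WT at 120 min (limma adjusted p = 0.0343). When arrays were left out singly, the call was lost in 12 of 14 fits and was kept without KO 30 min A or without KO 30 min B. The change stayed between -1.14 and -0.76 in those fits, with adjusted p up to 0.567.

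Ciita, the transactivator, had overlapping groups in both genotypes. On KO arrays it read 200.1 and 162.1 at 120 min, against 104.1, 184.1 and 99.9 untreated (0.44 ± 0.24, limma adjusted p = 0.762), where the untreated array B lay between the irradiated ones. On WT arrays it read 79.8 and 103.2 at 120 min, against 90.5, 119.5 and 73.2 untreated, with a change of 0.03 ± 0.24. Averaged over the 3 conditions, Ciita had higher values in KO than in WT, with a difference of 0.43 ± 0.14 (limma adjusted p = 0.568).

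The difference between the genotypes' responses at 120 min, KO change minus WT change, asks whether IR moved these genes differently without Atm. It was above 0 for all 10 genes, with a median of 0.79, where 49.3% of all probe sets lay above 0. None of the 12 probe sets was called, against 0.134% of all probe sets in either direction and 0% for higher values. An unadjusted p under 0.05 with a higher value was found for 8 of the 12, against 3.52%. On the log2(value + 32) scale the largest differences were 1.11 ± 0.36 for H2-DMb1 (limma adjusted p = 0.486) and 0.92 ± 0.36 for H2-Oa (adjusted p = 0.635). Relative to its SE the largest was that of Cd74, 0.84 ± 0.23 (limma adjusted p = 0.369). The difference was 0.86 ± 0.31 for H2-Aa, 0.82 ± 0.31 for H2-Ab1, 0.76 ± 0.25 for H2-Ob, 0.67 ± 0.26 for H2-Eb1 and 0.64 ± 0.28 for H2-DMa. Those of Ciita (0.40 ± 0.34) and H2-DMb2 (0.23 ± 0.45) were within about their SE or little above it. Without WT 120 min B, 9 of the 10 genes were above 0 with a median of 0.61, and the number of probe sets with an unadjusted p under 0.05 was 3 without WT 120 min B and likewise 3 without KO 120 min A.

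**Figure D3:**
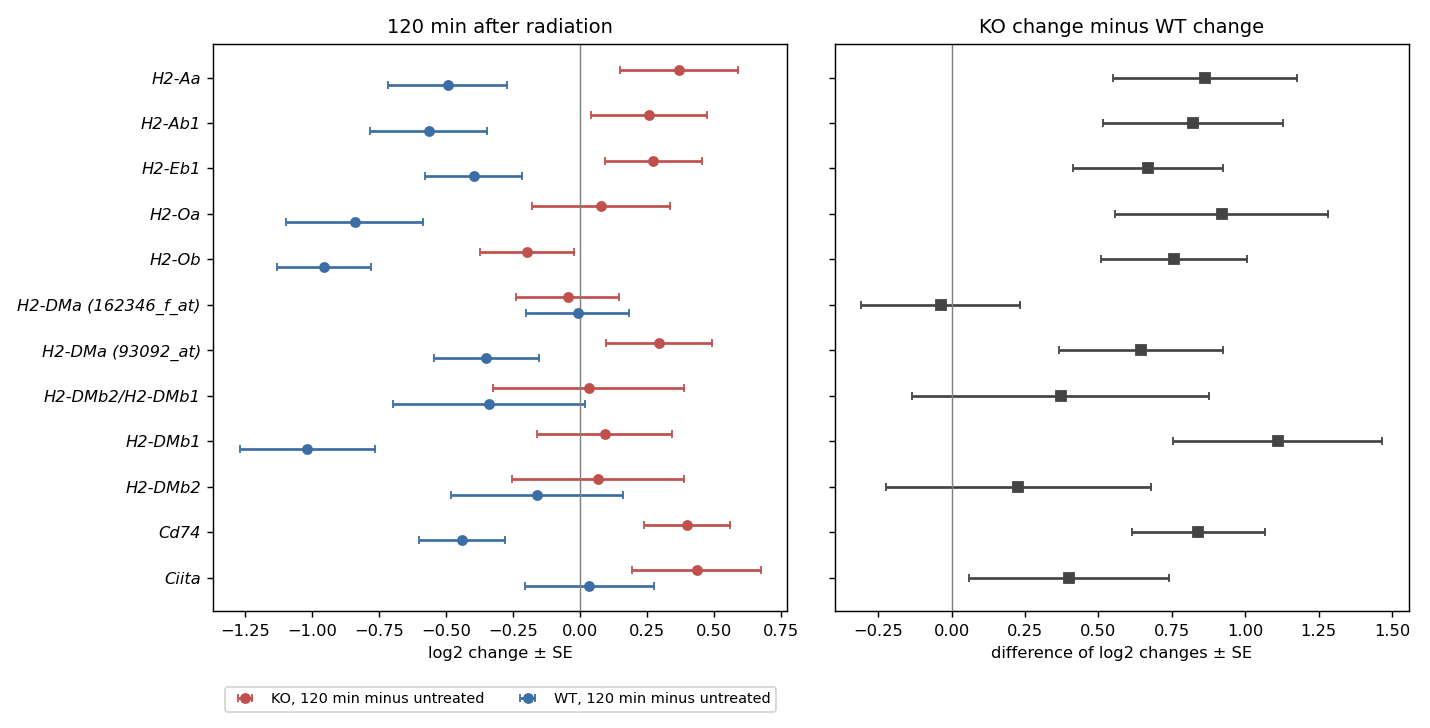
Log2 change at 120 min after IR against untreated for each of the 12 probe sets of the 10 genes, in KO and WT, and the difference between them (KO change minus WT change). Points are limma estimates and bars ± 1 SE. With each gene read by its brightest probe set, all 10 differences lie above 0, from 0.23 for H2-DMb2 to 1.11 for H2-DMb1. That of the dim second H2-DMa probe set is -0.04, and that of the probe set shared by the DMb genes 0.37. Only H2-Ob in WT was called.

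Read directly at 120 min, the KO arrays lay above the WT arrays without overlap for 9 of the 10 genes, all but H2-DMb2. With 2 arrays on each side this was so for 20.6% of all probe sets. By probe set it was so for 9 of the 12. For the dim second H2-DMa probe set the KO arrays lay below the WT arrays without overlap, as for 20.9% of all probe sets. The filter had favoured that direction for it. The summed intensity of the 10 genes was 7422 to 9329 on the KO 120 min arrays and 4569 to 5089 on the WT 120 min arrays. Untreated arrays summed to 5606 to 6571 in KO and 6218 to 7047 in WT.

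At 30 min no member was called in KO, in WT or in the difference between their responses, where 0%, 0.101% and 0.0783% of all probe sets were called. In KO 4 of the 10 genes lay above 0 (median -0.05), against 48.6% of all probe sets, and in WT also 4 (median -0.12), against 50.3%. The difference of responses lay above 0 for 7 of the 10 (median 0.22), against 48.4%. None of the 12 probe sets had an unadjusted p under 0.05 in KO, in WT or in the difference at 30 min, against 8.38%, 5.02% and 5.59% of all probe sets. On that scale the largest changes at 30 min were -0.45 ± 0.32 for H2-DMb2 in KO and -0.42 ± 0.26 for H2-Oa in WT. Cd74 read 2436.8 and 2240.5 on the KO arrays and 1742.4 and 2296.8 on the WT arrays at that time, which overlapped. Among untreated arrays, 8 of the 10 genes were lower in KO than in WT, with a median of -0.13, where 50% of all probe sets were lower, and 0 were called, against 0% of all probe sets. An unadjusted p under 0.05 was found for 2 of the 12, H2-Ob and the dim H2-DMa probe set, both lower in KO, against 5.48%. For that dim probe set the filter had favoured lower KO values, so it adds no support. H2-Oa and H2-Ob were the 2 of the 10 genes whose genotypes did not overlap, against 5.09% of all probe sets with lower KO values. The dim H2-DMa probe set, which does not stand for its gene, did not overlap either, in the direction that the filter had favoured. Averaged over the 3 conditions, 9 of the 10 were higher in KO with a median of 0.19, where 48.9% of all probe sets were higher, and 0 were called, against 0.168%, with an unadjusted p under 0.05 for 4 of the 12, against 6.44%. Of these 3 were higher in KO and 1, the dim H2-DMa probe set, was lower (-0.32 ± 0.11). For that probe set the filter had favoured lower KO values, so it adds no support. That average takes in the 120 min arrays described above. Cd74 was higher in KO by 0.31 ± 0.10 in that average (limma adjusted p = 0.456).

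Among themselves some of the members varied together and others less so. Over the 14 arrays, which share their scaling and the group differences, the correlation of H2-Aa with Cd74 was 0.927 and that of H2-Aa with the main H2-DMa probe set 0.875. With group means removed these were 0.914 and 0.827. H2-Eb1 was less tied to the others within groups: with group means removed its correlation was 0.183 with H2-Aa, 0.222 with Cd74 and -0.202 with H2-Ab1. Leaving out the dim H2-DMa probe set and the one shared by the DMb genes, the 45 pairs of probe sets had a median correlation of 0.551 over the 14 arrays and 0.363 with group means removed. These are descriptions with no test.

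The genes outside the members whose pattern over the 14 arrays was most like the mean of the 12 scaled probe sets, out of 6531 genes ranked, were mostly genes of B cells and leukocytes. Among the 8 most alike were Cd37, a tetraspanin of B cells (r = 0.885, and 0.825 with group means removed), the leukocyte tetraspanin Cd53 (0.881 and 0.757), and Cd79b, a signalling chain of the B cell receptor (0.874 and 0.599). Ms4a1, which encodes CD20, followed at 0.865, the B cell coactivator Pou2af1 at 0.861, the immunoproteasome subunit Psmb9 at 0.843 and the immunoglobulin segment Ighv14-2 at 0.838. At 120 min none of the 8 was called in KO, WT or the difference of responses, against 0%, 0.515% and 0.134% of all probe sets. Cd79b had log2 changes of 0.68 ± 0.27 in KO and -1.12 ± 0.27 in WT, and Psmb9 had changes of 0.47 ± 0.16 in KO and -0.68 ± 0.16 in WT.

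B cell markers as a list varied with the class II genes. Of 20 listed B cell markers 16 were on the array and all 16 were tested. In KO at 120 min 10 of the 16 lay above 0 with a median of 0.05. In WT 14 of the 16 lay below 0 with a median of -0.58, and 12 did so without overlap, where that held for 13.6% of all probe sets. Cd22, an inhibitory receptor of B cells, was the one called, in WT, where 0.0448% of all probe sets were called with lower values. It read 43.4 and 43.8 on the KO 120 min arrays, against 80.8, 47.6 and 89.5 untreated. It read 7.0 and 5.7 on the WT 120 min arrays, against 103.0, 80.6 and 91.4 untreated, a change of -1.62 (limma adjusted p = 0.0053) that was not called without WT 120 min A (0.0531), without WT 120 min B (0.119) or with a floor in place of the offset (0.0848). The difference of responses over the B cell list had a median of 0.65, with 14 of 16 above 0. The summed B cell level was 3183 to 4079 on the KO 120 min arrays, against 2521 to 3425 on the untreated KO arrays, and 2065 to 2094 on the WT 120 min arrays, against 3083 to 3748 on the untreated WT arrays. Over the 14 arrays the mean of the scaled B cell markers correlated with that of the class II probe sets at 0.943, and at 0.934 with group means removed. The part of the B cell markers in the class II result was not tested.

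Other cell lists are given in the same way. Macrophage and monocyte markers (11 tested) had a median of 0.34 in KO and -0.14 in WT at 120 min, 10 of the 11 differences of response lay above 0 (median 0.41), and the correlation with the class II genes was 0.845, and 0.909 with group means removed. Their mean scaled value was 1.426 on KO 120 min A and 0.229 on KO 120 min B. That second value lay within the untreated KO range of -0.324 to 0.338. The part of these markers in the class II result was not tested either. T cells of the mouse make no class II. Of 12 T cell markers 10 lay above 0 in KO at 120 min (median 0.25) and 11 below 0 in WT (median -0.38). Their differences of response had a median of 0.70, and their correlation was 0.705, and 0.613 with group means removed. Their mean scaled value was 0.504 on KO 120 min A and -0.14 on KO 120 min B. The latter lay within the untreated KO range of -0.8 to 0.093. The part of T cells in the class II result was not tested. Dendritic cell markers (8 tested) had medians of 0.22 in KO and 0.06 in WT, a difference of 0.11 and a correlation of 0.192, and 0.308 with group means removed. Salivary gland markers (6 tested) had medians of -0.02 in KO and -0.0019 in WT. Skeletal muscle markers (10 tested) had the opposite signs, with medians of -1.63 in KO and 0.76 in WT, and a correlation of -0.491, and -0.564 with group means removed. Their sums were 908 to 3455 on the KO 120 min arrays, against 3601 to 11115 on the untreated KO arrays, and 3757 to 3872 on the WT 120 min arrays, against 1340 to 3072 on the untreated WT arrays. Whether the share of muscle RNA had a part in the class II values was not tested. The ratio of the 3′ to the 5′ Gapdh control probe set, which follows RNA integrity, read 0.857 and 0.777 on the KO 120 min arrays, against 0.896, 0.867 and 0.976 on the untreated KO arrays. It read 0.891 and 0.723 on the WT 120 min arrays, against 0.958, 0.902 and 1.007 on the untreated WT arrays. In each genotype both 120 min Gapdh ratios lay below every untreated one. The same ratio for Actb overlapped in both genotypes. It read 1.345 and 1.354 on the KO 120 min arrays, against 1.244, 1.422 and 1.302 untreated. On the WT 120 min arrays it read 1.41 and 1.331, against 1.437, 1.364 and 1.58 untreated. The part of RNA integrity in the class II values was not tested.

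**Figure D4:**
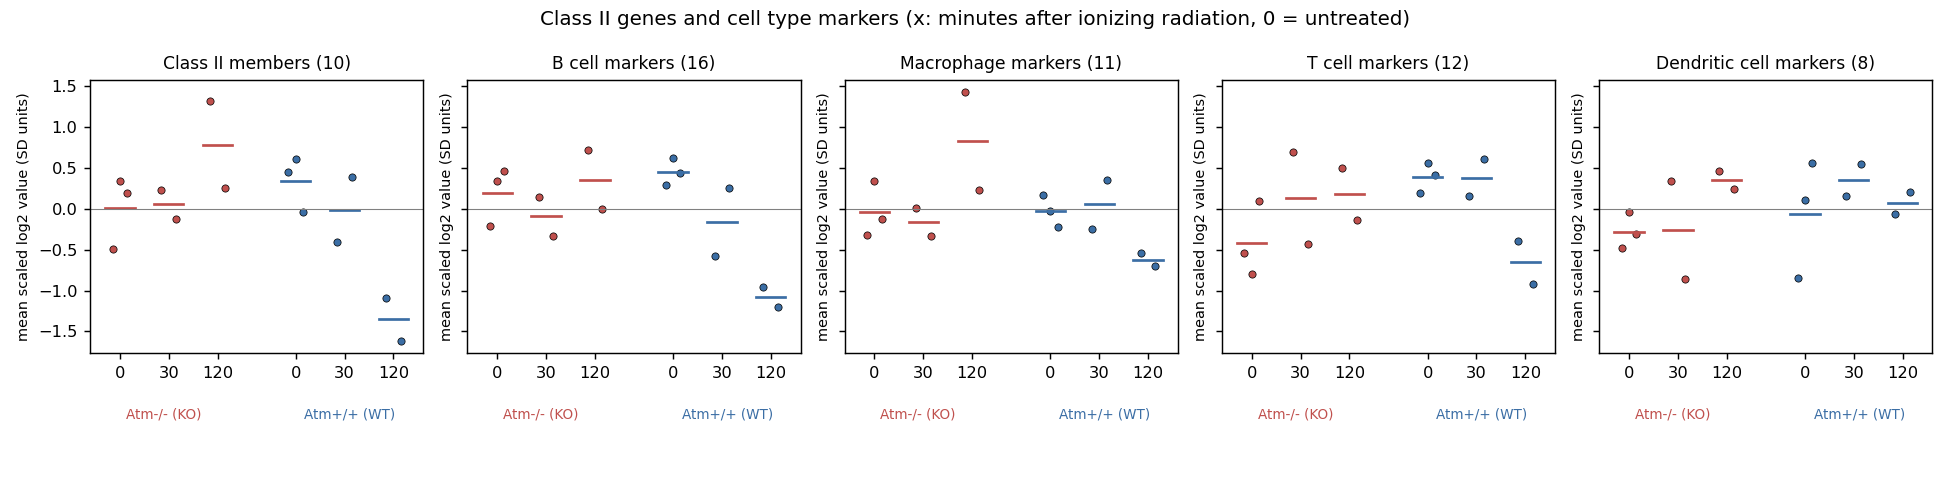
Mean of the scaled values of a gene list on every array (points). The panels show the class II genes, then B cell, macrophage, T cell and dendritic cell markers. KO groups are left of WT groups and times run from untreated to 120 min. The class II, B cell and macrophage panels are lowest on the 2 WT 120 min arrays.

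The rest of the pathway was followed through 3 lists. Of the peptide processing genes, the endosomal proteases and their companions, 13 of 15 were tested. By limma 0 were called in any of the 8 comparisons, where 0% to 0.515% of all probe sets were called. At 120 min an unadjusted p under 0.05 was found for 0 in KO, 1 in WT and 0 in the difference, against 7.22%, 8.66% and 6.99%. At that time their median change was 0.13 in KO and -0.04 in WT, and the median difference of response was 0.26. Ctss, the cathepsin that trims the invariant chain in B cells and dendritic cells, read 801.4 and 497.4 on the KO 120 min arrays. It read 404.8 and 384.0 on the WT 120 min arrays. Its untreated values were 512.1, 635.0 and 558.5 in KO and 616.0, 442.5 and 577.8 in WT. Its difference of response was 0.60 ± 0.35 (limma adjusted p = 0.799). The protease inhibitor Cst3 had changes of -0.04 ± 0.21 in KO and -0.59 ± 0.21 in WT, and the thiol reductase Ifi30 had changes of 0.23 ± 0.21 in KO and -0.16 ± 0.21 in WT.

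Of 20 genes of class II transcription and interferon gamma signalling 15 were tested, and at 120 min 1 was called, upward, in WT, against 0.47% of all probe sets. Irf1, an interferon-induced factor that acts on a Ciita promoter, read 297.9 and 273.2 on the KO 120 min arrays, against 186.6, 224.4 and 257.4 untreated (0.34 ± 0.19). On WT arrays it read 594.5 and 609.8 at 120 min, against 241.2, 201.0 and 175.2 untreated. Irf1 rose in WT by 1.40 ± 0.19 (limma adjusted p = 0.00487), a call that was lost without WT 120 min A (0.0525), without WT 120 min B (0.11) and in a fit of those groups alone (0.053). Its difference of response was -1.06 ± 0.28 (limma adjusted p = 0.338). The receptor chain Ifngr2 had the same order, 0.07 ± 0.32 in KO and 1.19 ± 0.32 in WT (adjusted p = 0.207). Irf1 was higher in the WT 120 min group. That group had the lowest group mean for 8 of the 10 class II genes, and its Ciita values overlapped the untreated ones. A link between these was not tested. The list's median was 0.07 in both genotypes. Among X and Y box factors read by the array, the changes in WT at 120 min were 0.02 ± 0.24 for Rfxank and 0.09 ± 0.21 for Nfya. They were 0.21 ± 0.15 for Nfyb and -0.22 ± 0.17 for Nfyc. Creb1, of the same list, had a larger change of 0.34 ± 0.26 (limma adjusted p = 0.791). The B cell factor Pax5 had changes of 0.25 ± 0.28 in KO and -0.43 ± 0.28 in WT, and the leukocyte factor Irf8 had 0.25 ± 0.23 in KO and -0.39 ± 0.23 in WT.

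Of 9 partners of class II on presenting cells and T cells 7 were tested. At 120 min 0 were called by limma, against 0% of all probe sets in KO and 0.515% in WT. An unadjusted p under 0.05 was found for 1 in KO and 0 in WT, against 7.22% and 8.66%. Cd40, the receptor through which T cells activate presenting cells, read 46.5 and 61.1 on the KO 120 min arrays, against 8.2, 13.3 and 21.1 untreated, a change of 0.90 ± 0.28 (limma adjusted p = 0.601) at values near the filter. The coreceptor Cd4, which binds class II, had changes of 0.0006 ± 0.28 in KO and -0.59 ± 0.28 in WT (adjusted p = 0.587).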

How the data were processed

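The deposited intensity values, linear and 1 per probe set on each array, were used as the authors gave them. The sources used here do not name the software behind them, and the common scaling was read from the values. Groups, times and replicate letters came from the sample titles. Values were taken as log2(intensity + 32) of the deposited intensities and quantile normalized, since array medians spanned 0.273. The 66 control probe sets were left out. A probe set was tested if it exceeded its array's 40th percentile (38.3 to 55.28) on at least 2 arrays, which left 8938. With 6 group means as terms, the 14 arrays were fitted in limma 3.58.1 in R 4.3.3 (8 residual and 4.56 prior degrees of freedom), with 8 comparisons, each adjusted by Benjamini-Hochberg. Scripts were tested on simulated data.

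Names came from the platform's annotation, where 10855 probe sets had 1 gene, 396 several and 1237 none. Entrez IDs matched 10839 single-gene probe sets to RefSeq, which changed 0 symbols. Where several probe sets read a gene, the brightest on average stands for it. The members, lists, named-gene rule (all members, called list genes and up to 4 others by size, and the 8 genes most alike, of which 1 is not reported here) and motifs were chosen with earlier results of these data known. Alternatives were other offsets, filters, scaling, arrays and a replicate block.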

Additional observations from a re-analysis of the deposited data

How the results depend on the processing

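The count of called members stayed at 0 under every one of the 23 alternatives in 7 of the 8 comparisons, all but WT at 120 min. There the count of 1, H2-Ob, became 0 in a fit of only the arrays of those groups (adjusted p = 0.236), with a replicate block (0.0973) and, chosen after seeing the data, without the 2 arrays of lowest median correlation (0.0722). It was 0 to 1 when each array was left out in turn. The H2-Ob change stayed below 0 throughout. The replicate letters do not pair the arrays: deviations of same-letter arrays correlated at -0.121 to 0.0844, and the replicate block changed no other member's call. The direction of the median in WT at 120 min, in KO at 120 min and in the difference between them held in all fits; in KO it came down to 0.03 without KO 120 min A. Of 96 member values, 37 took either sign in some setting, 4 of them among the 39 over 0.3 in size. Leaving out quantile normalization brought the members with an unadjusted p under 0.05 in WT at 120 min to 4, against 7 as reported, and moved the median of all probe sets by under 0.1 in each comparison. Dim probe sets, with only 2 irradiated arrays a group, limit what could be called.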
